A study of Rattus norvegicus with 5 samples.

Results

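The 6 genes described here belong to lipid synthesis and were measured in rat tendon stem/progenitor cells (rTSPCs) that had been passaged with or without prim-O-glucosylcimifugin (POG), a chromone glucoside from the root of Saposhnikovia. Insig1, Dhcr7, Fdft1 and Acat2 belong to the sterol branch, and Acaca and Fasn to the fatty acid branch. The genes were chosen by symbol from the platform's annotation, with earlier results of these data known. Their calls are therefore no independent support. Each gene was read by 1 probe set, so that 6 of the 10141 probe sets in the deposited table were used as members. The POG group (n = 2 arrays) received 20 μM POG at each passage from P3 to P12, and the DMSO group (n = 3 arrays) received an equal amount of dimethyl sulfoxide, the solvent. All cells were harvested at P12, and the labels name no genetic change in either group. The study's serial-passage model of senescence used cells of 3-month-old rats. The arrays are labelled biological replicates, but whether each came from its own culture or animal is not stated, and every p-value below therefore reflects array-to-array spread, which may be technical. All values are log2 signals after RMA (robust multi-array average) processing, a difference of 1 is a 2-fold difference in signal, and each array holds a mixed cell population in which fewer cells of a type and less RNA per cell cannot be told apart.

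Mammalian cells make cholesterol from acetyl-CoA through the mevalonate pathway, then by way of squalene and lanosterol, whereas fatty acid synthesis carboxylates acetyl-CoA to malonyl-CoA and extends it to palmitate. Sterol regulatory element-binding proteins (SREBPs) are membrane-bound transcription factors that drive the genes of both branches. The escort protein SCAP carries SREBPs to the Golgi for cleavage when sterols are scarce, and INSIG proteins hold that complex in the endoplasmic reticulum when sterols are plentiful. In textbook accounts SREBP-2 acts mainly on the sterol branch, and SREBP-1c, raised by liver X receptors, mainly on the fatty acid branch.

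All 4 sterol genes were higher in the POG-treated cells, by 0.83 to 1.23 on the log2 scale, whereas the fatty acid genes moved apart, with Acaca at 0.50 and Fasn at -0.31. By limma, with p-values adjusted by the Benjamini-Hochberg method across the whole table, 5 of the 6 genes passed at an adjusted p under 0.05 in the direction of POG and 0 of the 6 in the direction of DMSO. Much of the transcriptome differed between the groups in this comparison: 26.7% of all probe sets passed as higher with POG and 19.6% as lower. The median change of all probe sets was 0.11. Both POG arrays lay above all DMSO arrays for 5 members, against 38.3% of all probe sets, and both lay below them for 1 member, Fasn, against 28.5% of all probe sets.

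Insig1, the sterol-sensing anchor of the SCAP-SREBP complex and itself a known SREBP target, read 13.52, 13.68 and 13.68 with DMSO and 14.78 and 14.93 with POG. The POG arrays sat 1.1 above the highest DMSO array, and the arrays of each group lay close together. The mean rose from 13.63 ± 0.09 (SD, n = 3) to 14.86 ± 0.11 (SD, n = 2). The change was 1.23 ± 0.17 (SE), a 2.34-fold rise with a 95% confidence interval of 0.85 to 1.61 on the log2 scale (limma, adjusted p = 0.000318). Of all probe sets, 12.9% had a change of larger size, in either direction.

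Dhcr7, the reductase that turns 7-dehydrocholesterol into cholesterol at the end of the pathway, read 8.69, 8.94 and 9.23 with DMSO and 10.28 and 9.95 with POG. The groups did not overlap, with a gap of 0.72 between the highest DMSO and the lowest POG array. The rise was 1.16 ± 0.21 (SE), or 2.24-fold, with a 95% interval of 0.70 to 1.62 (limma, adjusted p = 0.0016).

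Fdft1, squalene synthase, which commits farnesyl diphosphate to sterols, read 10.52, 11.03 and 10.22 with DMSO and 11.77 and 11.86 with POG. The DMSO arrays were the most scattered of any member group (SD 0.41), the POG arrays lay within 0.09 of each other, and the gap between the groups was 0.74. The rise was 2.34-fold, with a 95% interval of 0.70 to 1.75 on the log2 scale (limma, adjusted p = 0.0023). Its size depended on which DMSO array was kept: 1.04 without DMSO replicate 3 and 1.45 without DMSO replicate 2, and it passed in both cases.

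Acat2, the cytosolic thiolase that joins acetyl-CoA units ahead of the mevalonate steps and not the sterol acyltransferase that shares the abbreviation, read 8.98, 8.85 and 8.91 with DMSO and 9.53 and 9.95 with POG. The DMSO arrays agreed within 0.13, the POG arrays differed by 0.42, and the groups were 0.55 apart. Acat2 rose 1.77-fold, by 0.83 ± 0.19 (SE) with a 95% interval of 0.41 to 1.24 (limma, adjusted p = 0.0054). Without POG replicate 2 the change was 0.62 and no longer passed (adjusted p = 0.0642). The rat annotation also lists a paralog, Acat2l1, and the pseudogenes Acat2-ps1 and Acat2-ps2, none of which had a named probe set, so the signal of this probe set cannot be assigned to Acat2 with certainty.

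**Figure D1:**
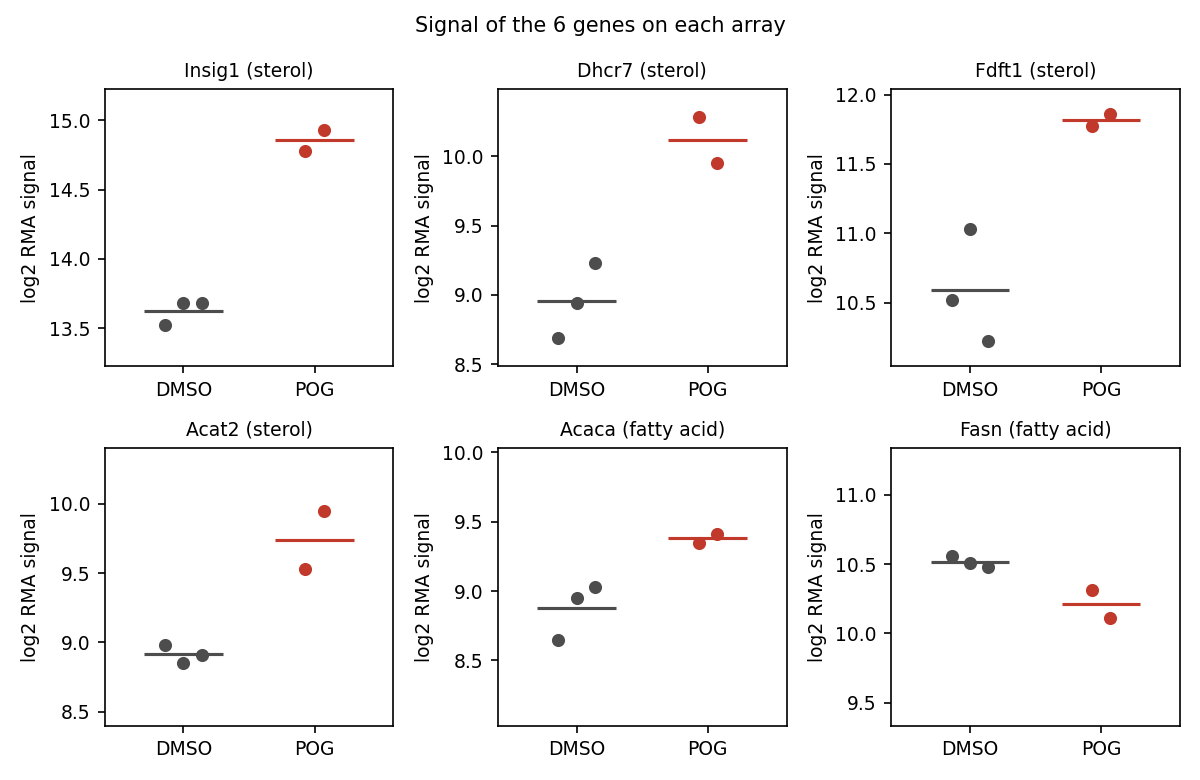
Log2 RMA signal of the 6 genes on each array, 1 panel a gene, with DMSO arrays (n = 3) in grey, POG arrays (n = 2) in red and a bar at each group mean. Each vertical axis spans 2 log2 units but starts at its own level. The POG arrays lie above the DMSO arrays for all 4 sterol genes and Acaca, with the widest gap, 1.1, at Insig1, and below them for Fasn.

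Acaca, acetyl-CoA carboxylase alpha, which makes the malonyl-CoA that limits fatty acid synthesis, read 8.65, 8.95 and 9.03 with DMSO and 9.35 and 9.41 with POG. The groups were 0.32 apart, a smaller gap than for any sterol member. The rise was 1.42-fold, or 0.50 ± 0.18 (SE), with a 95% interval of 0.10 to 0.91, and it passed by little (limma, adjusted p = 0.0446). The call was lost when any array other than DMSO replicate 3 was left out (adjusted p = 0.0745 to 0.174) and when each array was centred on its median (0.42, adjusted p = 0.0726). A change of larger size was seen in 48.8% of all probe sets.

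Fasn, the multienzyme that builds palmitate from malonyl-CoA, read 10.56, 10.51 and 10.48 with DMSO and 10.31 and 10.11 with POG. The DMSO arrays lay within 0.08 of each other and the POG arrays were 0.17 or more below them. The difference was -0.31 ± 0.17 (SE) and did not pass (limma, adjusted p = 0.157). Its 95% interval, -0.68 to 0.07, leaves no room for a rise of the size seen in any of the sterol members, and 67.6% of all probe sets had a change of larger size.

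In the RefSeq annotation, Insig1, Fdft1, Acat2 and Acaca overlap other annotated loci, and Dhcr7 and Fasn overlap none. Promoter sequences are shown for the 3 sterol members that the RefSeq table held (GRCr8 assembly), because both branches are classically read through short promoter motifs. Each window runs 5′ to 3′ on the gene's strand, from 250 bases before to 50 bases after the annotated start, and capitals mark motif matches. The motifs were searched on both strands: the sterol regulatory element TCACNCCAC, the CCAAT box CCAAT, the E-box CACGTG and the GC box GGGCGG. The windows lie at chr4:8057720-8058019 on the minus strand for Insig1, chr1:208444184-208444483 on the plus strand for Dhcr7 and chr1:50100590-50100889 on the plus strand for Acat2.
Insig1: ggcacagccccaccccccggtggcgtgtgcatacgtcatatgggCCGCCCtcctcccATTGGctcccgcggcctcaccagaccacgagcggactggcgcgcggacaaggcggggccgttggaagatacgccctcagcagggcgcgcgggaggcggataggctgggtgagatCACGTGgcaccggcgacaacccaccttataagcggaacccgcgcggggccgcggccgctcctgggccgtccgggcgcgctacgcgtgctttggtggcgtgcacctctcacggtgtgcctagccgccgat
Dhcr7: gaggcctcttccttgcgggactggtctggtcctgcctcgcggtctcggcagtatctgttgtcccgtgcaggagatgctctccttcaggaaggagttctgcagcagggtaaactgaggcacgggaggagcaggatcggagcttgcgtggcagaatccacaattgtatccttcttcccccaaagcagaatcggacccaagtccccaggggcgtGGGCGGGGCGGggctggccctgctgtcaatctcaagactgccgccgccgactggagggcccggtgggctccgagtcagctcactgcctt
Acat2: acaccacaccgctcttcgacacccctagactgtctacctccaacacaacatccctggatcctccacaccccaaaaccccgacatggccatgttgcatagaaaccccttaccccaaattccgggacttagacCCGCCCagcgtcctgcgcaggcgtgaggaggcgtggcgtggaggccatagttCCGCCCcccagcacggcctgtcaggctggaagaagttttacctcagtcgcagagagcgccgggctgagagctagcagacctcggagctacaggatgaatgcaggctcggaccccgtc

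The Insig1 window, with a GC content of 71.3%, held 1 GC box at -206 to -201 and 1 CCAAT box at -193 to -189, both on the opposite strand, and 1 E-box at -79 to -74, counted from the start. The Dhcr7 window (63.0% GC) held 2 GC boxes, at -39 to -34 and -34 to -29, which overlap by 1 base. The Acat2 window (61.0% GC) held 2 GC boxes on the opposite strand, at -119 to -114 and -67 to -62. The median GC content of all 33469 promoters in the table was 51.7%. A GC box occurred in 33.1% of those promoters, a CCAAT box in 37.5%, an E-box in 6.42% and the sterol regulatory element, as spelled here, in 1.12%. Among the 79 measured genes of the lipid lists below that had a promoter in the table, 57 held a GC box, 46 a CCAAT box, 9 an E-box and 0 the sterol regulatory element. A match is only a run of letters, and the absence of one says only that those letters are not in that window.

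Members of the branches were set against each other within each array. The log2 signal of a fatty acid gene was subtracted from that of a sterol gene, and the difference was compared between POG and DMSO arrays. These pairs cover the members only and do not stand for the other genes of either branch, which are given below. Relative to its DMSO mean, the difference between Insig1 and Fasn was -0.15, 0.06 and 0.09 with DMSO and 1.36 and 1.71 with POG. Dhcr7 against Fasn gave -0.31, -0.01 and 0.31 with DMSO and 1.53 and 1.40 with POG. Thus in both cases all POG arrays lay far above the DMSO arrays. Fdft1 against Fasn gave -0.11, 0.45 and -0.33 with DMSO and 1.39 and 1.68 with POG. Acat2 against Fasn gave 0.02, -0.06 and 0.03 with DMSO and 0.82 and 1.44 with POG. The 4 sterol genes therefore rose over Fasn by 1.13 to 1.54 on the log2 scale, with no overlap between groups in any of the 4 pairs.

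Against Acaca the separation was smaller. Insig1 over Acaca was 0.12, -0.02 and -0.10 with DMSO and 0.68 and 0.77 with POG. Dhcr7 over Acaca was -0.04, -0.09 and 0.12 with DMSO and 0.85 and 0.46 with POG. Fdft1 over Acaca was 0.16, 0.37 and -0.52 with DMSO and 0.71 and 0.74 with POG. None of these pairs overlapped between groups. Acat2 over Acaca was 0.29, -0.14 and -0.16 with DMSO and 0.14 and 0.50 with POG, so that 1 DMSO array lay between the POG arrays.

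Of the 8 pairs compared, 7 did not overlap, and each of these had an exact two-sided permutation p of 0.2, or 0.229 after adjustment over the 8 pairs. The test as run doubles the one-sided p, and 0.2 is the smallest it allows with 3 against 2 arrays. Acat2 over Acaca had an exact p of 0.4. The exact test cannot reach 0.05 with these arrays. Among all single probe sets, both POG arrays lay above all DMSO arrays for 38.3% and below them for 28.5%. Groups without overlap were therefore common, and their share among pairs of other genes was not tested. The 8 pairs also reuse the same members and are not independent of each other. When the pairwise differences were fitted with limma beside all probe sets, which borrows their spread, the same 7 pairs passed. That spread is of single probe sets, whereas a difference carries the noise of 2 genes. From a pair's own arrays alone, the SE was 0.16, 0.24, 0.32 and 0.23 for Insig1, Dhcr7, Fdft1 and Acat2 over Fasn. Over Acaca it was 0.09, 0.17, 0.35 and 0.23 in the same order. The limma SE was 0.25 for Fdft1 over Acaca, below its own, and 0.17 for Insig1 over Acaca, above its own. The differences of change were 1.54 for Insig1 over Fasn (95% interval 1.12 to 1.95, adjusted p = 0.000134), 1.47 for Dhcr7 over Fasn (1.01 to 1.93, adjusted p = 0.000381), 1.53 for Fdft1 over Fasn (1.00 to 2.06, adjusted p = 0.000702) and 1.13 for Acat2 over Fasn (0.67 to 1.59, adjusted p = 0.0018). Over Acaca they were 0.73 for Insig1 (0.35 to 1.10, adjusted p = 0.0067), 0.66 for Dhcr7 (0.24 to 1.07, adjusted p = 0.0165) and 0.72 for Fdft1 (0.16 to 1.28, adjusted p = 0.0385). For Acat2 over Acaca the difference was 0.32, and its interval of -0.14 to 0.78 spans 0 as well as a difference as large as that of Insig1 (adjusted p = 0.220).

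The 4 comparisons with Fasn passed in the limma fit with each array left out in turn (highest adjusted p = 0.0244). Those with Acaca were less stable. Insig1 over Acaca did not pass without POG replicate 2 (0.68, adjusted p = 0.0523). Dhcr7 over Acaca did not pass without DMSO replicate 2 (0.62, adjusted p = 0.0528) or POG replicate 1 (0.46, adjusted p = 0.141). Fdft1 over Acaca did not pass without DMSO replicate 3 (0.46, adjusted p = 0.0849), POG replicate 1 (0.74, adjusted p = 0.137) or POG replicate 2 (0.71, adjusted p = 0.158). A shift shared by all genes of an array, such as the choice of centring, cancels in these differences.

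**Figure D2:**
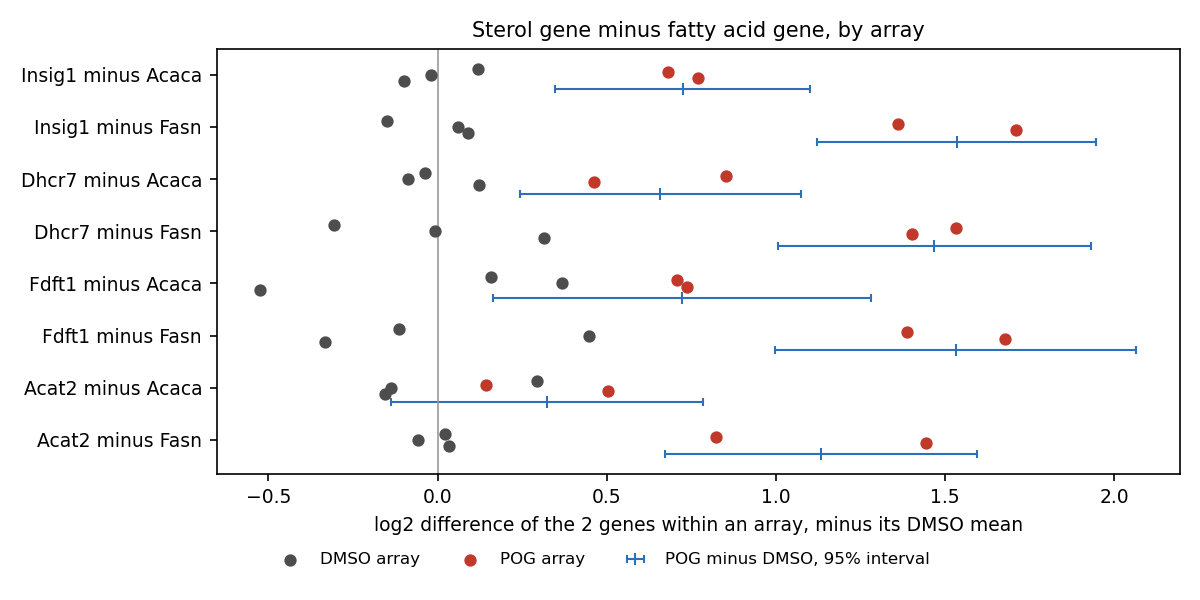
Difference in log2 signal between a sterol gene and a fatty acid gene within each array, minus its mean over the DMSO arrays, for the 8 pairs; grey points are DMSO arrays (n = 3), red points POG arrays (n = 2), and the blue line gives the POG minus DMSO difference with its 95% interval from limma. The POG arrays lie to the right of the DMSO arrays in 7 pairs, and the interval of Acat2 minus Acaca, -0.14 to 0.78, crosses 0.

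The members were next placed among the other enzymes of their branches. Of the 9 listed genes of the mevalonate steps, 6 were measured; 3 rose and 0 fell, and their median change was 0.62. Beside Acat2, the genes that rose were the kinases that phosphorylate mevalonate in turn. Mvk read 8.83, 8.48 and 8.84 with DMSO and 9.40 and 9.51 with POG, a 1.67-fold rise (limma, adjusted p = 0.0092). Pmvk rose 1.63-fold (adjusted p = 0.0278) from signals near the lower quartile of probe set means, 6.19. Mvd, the next decarboxylase, had a change of 0.54 that did not pass (adjusted p = 0.0739). The later enzymes that make and join the isoprene units stood at -0.18 for Idi1 (adjusted p = 0.471) and -0.26 for Fdps (adjusted p = 0.231). Without POG replicate 2, 1 of the 6 passed as higher, with the calls of Acat2 and Mvk lost, and Pmvk did not pass without DMSO replicate 2 or POG replicate 1.

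From squalene to cholesterol, 10 of 13 listed genes were measured, and 4 rose and 2 fell, with a median change of 0.50. Beside Fdft1 and Dhcr7, Ebp, the sterol isomerase, read 11.07, 10.76 and 10.92 with DMSO and 11.81 and 11.76 with POG, a 1.83-fold rise (adjusted p = 0.0030). Nsdhl, a dehydrogenase that helps remove the methyl groups of lanosterol products, rose 1.66-fold (adjusted p = 0.0107). Of the same stretch, 2 enzymes went the other way, Tm7sf2, a sterol reductase, which fell by 0.80 (adjusted p = 0.0149), and Msmo1, the sterol methyl oxidase, which fell by 0.58 (adjusted p = 0.0155). Msmo1 was steady within groups, at 16.77, 16.72 and 16.80 with DMSO and 16.18 on both POG arrays. Cyp51, the lanosterol demethylase, at 0.51 (adjusted p = 0.0529), Sc5d, a sterol desaturase, at 0.48 (adjusted p = 0.0541), Sqle, squalene epoxidase, at 0.33 and Lss, lanosterol synthase, at 0.22 did not pass. Both calls of a fall were lost without POG replicate 1, and 1 gene of the list passed as lower without DMSO replicate 2 or POG replicate 2, while Nsdhl was not called without POG replicate 2.

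Over both sterol lists, 7 of 16 measured genes rose and 2 fell, or 43.8% and 12.5%, beside 26.7% and 19.6% of all probe sets, and the median change was 0.53 beside 0.11. Without the 3 members on them, 4 of 13 rose and 2 fell, with a median of 0.48. Within the sterol branch the changes were thus uneven, with members 1.77- to 2.34-fold higher and neighbouring enzymes that rose, fell or did not pass.

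**Figure D3:**
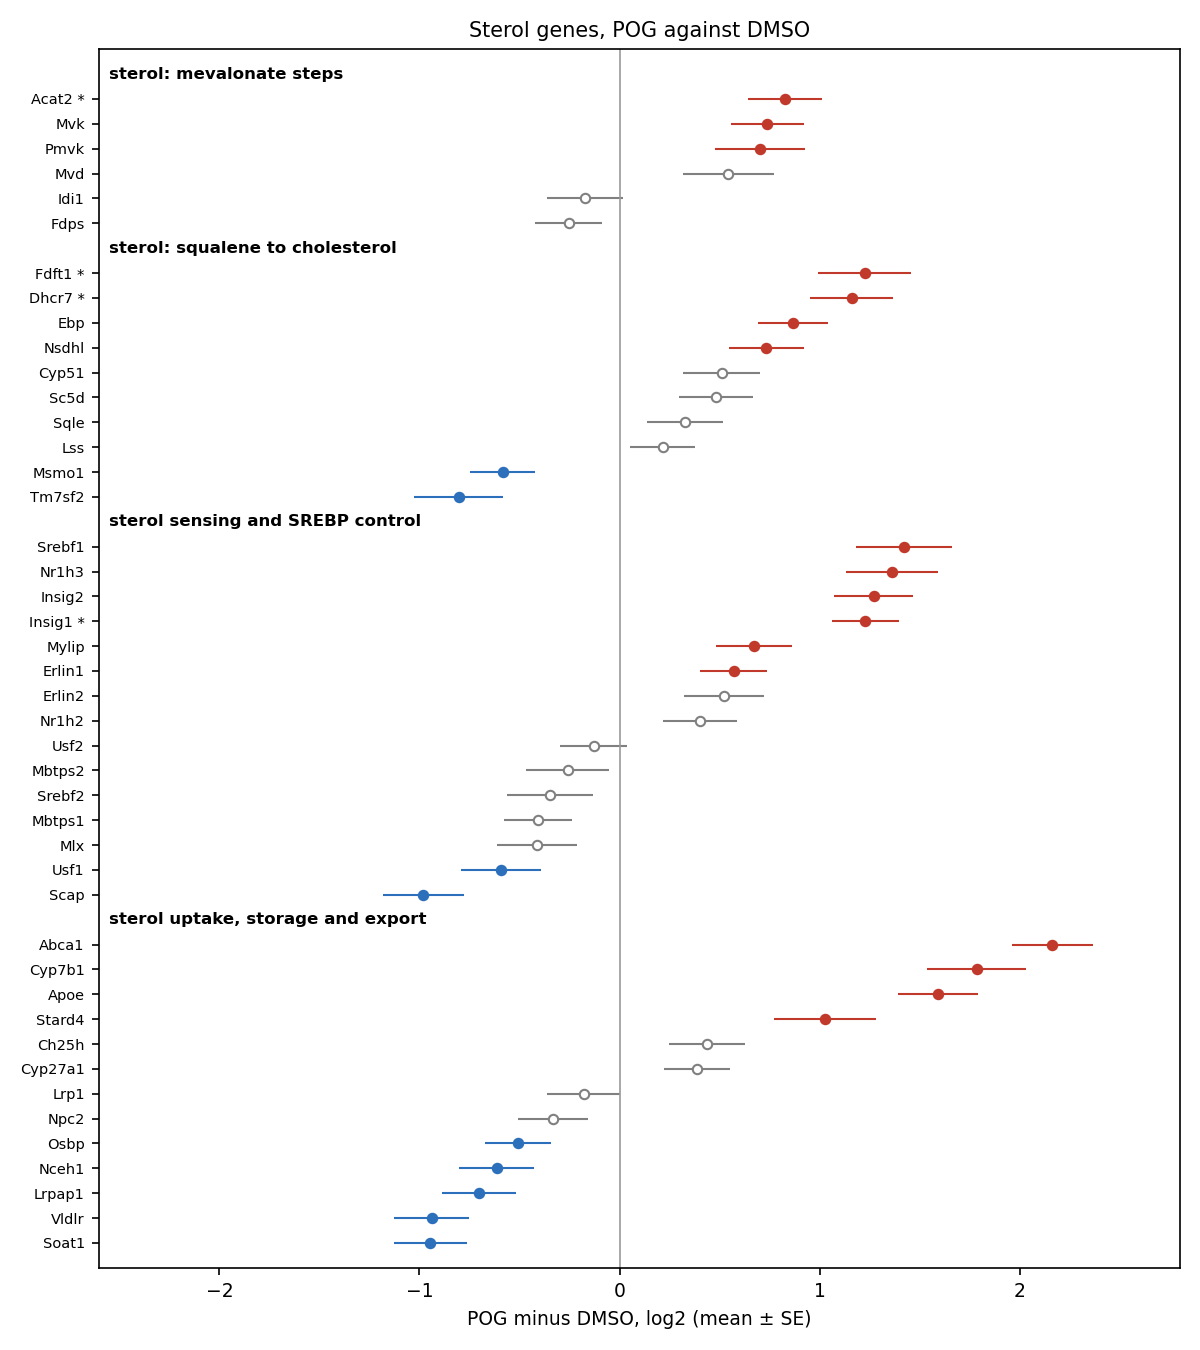
Change in log2 signal between POG (n = 2) and DMSO arrays (n = 3), with its standard error from limma, for the measured genes of 4 sterol lists; red marks genes that passed as higher, blue as lower, open grey circles those that did not pass, and an asterisk the members. Fdft1, Dhcr7 and Acat2 stand at the top of their lists, at 0.83 or more, while Tm7sf2 and Msmo1 lie below 0. Insig1, at 1.23, stands below Srebf1, Nr1h3 and Insig2 in its list.

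Among the regulators that sense sterols and control SREBPs, 15 of 19 genes were measured, 6 passed as higher and 2 as lower, and the median change was 0.40. Insig2, the other INSIG protein, read 8.20, 8.49 and 8.48 with DMSO and 9.88 and 9.44 with POG, a 2.41-fold rise (adjusted p = 0.000686), so that both INSIG genes were higher with POG. Scap, the escort that INSIG proteins bind, read 8.42, 8.97 and 8.50 with DMSO and 7.69 and 7.61 with POG. It was 1.97-fold lower with POG, a fall by 0.98 ± 0.20 (SE; adjusted p = 0.0037). The genes of the escort and of its anchors therefore moved in opposite directions.

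Srebf1, which encodes the SREBP-1 isoforms, read 8.21, 8.39 and 7.60 with DMSO and 9.38 and 9.60 with POG, a 2.68-fold rise (adjusted p = 0.0011). Srebf2, which encodes SREBP-2, read 10.88, 10.52 and 10.27 with DMSO and 10.06 and 10.36 with POG. Its groups overlapped and its difference, -0.35, did not pass (adjusted p = 0.206). One probe set per gene does not separate the SREBP-1 isoforms. Nr1h3, liver X receptor alpha, rose 2.57-fold, from 6.87, 7.17 and 6.59 to 7.97 and 8.51 (adjusted p = 0.0011). Mylip, a ubiquitin ligase that liver X receptors induce, rose 1.59-fold (adjusted p = 0.0166), and Erlin1, a membrane protein of the endoplasmic reticulum, rose 1.48-fold (adjusted p = 0.0198). Usf1, a transcription factor known from fatty acid synthesis genes, had a difference of -0.59 that passed with all arrays (adjusted p = 0.0347) but not when any array other than POG replicate 2 was left out. The Golgi proteases that release SREBPs stood at -0.41 for Mbtps1 (adjusted p = 0.0719) and -0.26 for Mbtps2 (adjusted p = 0.327) and did not pass. Mylip was not called without POG replicate 2, nor Erlin1 without DMSO replicate 2 or either POG array, and Mlx, at -0.41 with all arrays, passed as lower without DMSO replicate 1.

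Genes of sterol uptake, storage and export were split: of 13 measured of 18 listed, 4 rose and 5 fell, with a median of -0.18. Abca1, the exporter of cholesterol to apolipoproteins, read 5.56, 5.12 and 5.63 with DMSO and 7.51 and 7.69 with POG (4.48-fold, adjusted p = 2.2e-05), and Apoe, a lipoprotein of the same route, rose 3.02-fold, from 8.15, 7.90 and 7.58 to 9.46 and 9.48 (adjusted p = 0.000175). Cyp7b1, an oxysterol hydroxylase, rose 3.45-fold (adjusted p = 0.000325), and its DMSO signals, like those of Abca1, lay below the lower quartile of probe set means. Stard4, a sterol carrier, rose 2.04-fold (adjusted p = 0.0091). Soat1, which esterifies cholesterol for storage, fell by 0.95, from 13.02, 13.35 and 13.13 to 12.34 and 12.10 (adjusted p = 0.0025), and Vldlr, a lipoprotein receptor, fell by 0.94 (adjusted p = 0.0029). The other 3 genes that fell were Lrpap1, a chaperone of lipoprotein receptors, Nceh1, a cholesteryl ester hydrolase, and Osbp, an oxysterol-binding protein. With either POG array left out, 3 genes of the list passed as lower. Stard4 and Lrpap1 were not called without POG replicate 1, Nceh1 without DMSO replicate 3 or POG replicate 2, and Osbp without any array other than DMSO replicate 3.

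In the fatty acid branch, 11 of 14 listed genes of synthesis and acetyl-CoA supply were measured, of which 4 rose and 1 fell, with a median change of 0.27. The 3 genes that rose beside Acaca all feed it with substrate. Acss2, the cytosolic acetyl-CoA synthetase, rose 1.80-fold, from 8.36, 8.49 and 8.80 to 9.44 and 9.35 (adjusted p = 0.0051). Slc25a1, the mitochondrial citrate carrier, rose 1.62-fold (adjusted p = 0.0151), and Acly, which splits the exported citrate to acetyl-CoA, rose 1.40-fold, from 12.08, 12.22 and 12.19 to 12.72 and 12.58 (adjusted p = 0.0367). Acetyl-CoA also feeds the sterol branch, so these genes belong to both. Me1, malic enzyme, a source of NADPH, fell by 0.61 (adjusted p = 0.0138). Without Acaca and Fasn, 3 of 9 rose and 1 fell. The count of rises was 2 with each array centred on its median, 2 without DMSO replicate 1 or DMSO replicate 2, and 1 without either POG array, and the fall of Me1 was not called without either POG array. Acly did not pass when any 1 of the 5 arrays was left out, and Slc25a1 did not without either POG array.

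Genes that desaturate and elongate fatty acids changed in both directions. Of 18 listed genes, 14 were measured, and 6 rose and 3 fell. Fads2 and Fads1, the desaturases of polyunsaturated fatty acid synthesis, rose 4.29-fold (from 12.12, 12.08 and 11.92 to 14.25 and 14.03, adjusted p = 9.63e-06) and 3.29-fold (from 13.87, 14.08 and 13.97 to 15.65 and 15.73, adjusted p = 3.22e-05). Scd, a stearoyl-CoA desaturase and a textbook SREBP-1c target, rose 3.19-fold, from 10.37, 10.55 and 10.11 to 11.97 and 12.06 (adjusted p = 7.96e-05), and its homolog Scd2 rose 2.40-fold (adjusted p = 0.000365). Elovl6, which elongates palmitate, rose 1.85-fold (adjusted p = 0.0027), and Tecr, the reductase of the elongation cycle, rose 1.42-fold (adjusted p = 0.0273). In the other direction, Hacd1, a dehydratase of the elongation cycle known from muscle, was 3.20-fold lower with POG (adjusted p = 9.11e-05), Fads3 was 2.16-fold lower (adjusted p = 0.000716) and Elovl4, an elongase of very long chains, was 1.64-fold lower (adjusted p = 0.0164). Tecr did not pass when any array other than DMSO replicate 1 was left out, and Elovl4 did not without POG replicate 1. The median of the list, 0.33, stands for these opposite movements.

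Of 18 listed genes of fatty acid activation and glycerolipid synthesis, 12 were measured, and 4 rose and 1 fell. Dgat2, which makes triacylglycerol, rose 2.21-fold, from 7.40, 7.55 and 7.07 to 8.57 and 8.40 (adjusted p = 0.0012). Among the acyltransferases ahead of it, Gpam rose 1.61-fold (adjusted p = 0.0123), Agpat4 rose 1.99-fold (adjusted p = 0.0068) and Agpat3 fell by 0.98 (adjusted p = 0.0097). Lpin3, a phosphatidate phosphatase, rose 1.46-fold (adjusted p = 0.0366). Plin2, a lipid droplet coat protein, stood at -0.51 and did not pass (adjusted p = 0.0892). Gpam was not called without either POG array, Lpin3 without DMSO replicate 2 or either POG array, Agpat4 without POG replicate 2 and Agpat3 without POG replicate 1. The count of rises was 2 without POG replicate 1 and 1 without POG replicate 2, while falls numbered 0 without POG replicate 1, 2 without DMSO replicate 1, 4 after quantile normalization and 3 with median-centred arrays. Of 24 listed genes of fatty acid oxidation, 15 were measured, and 3 rose and 1 fell, with a median of 0.38. The genes that rose were Acads, a short-chain acyl-CoA dehydrogenase (0.90, adjusted p = 0.0062), Eci2, an enoyl-CoA isomerase (0.86, adjusted p = 0.0060), and Etfb, an electron carrier subunit (0.74, adjusted p = 0.0251). Cpt1c, a brain-type relative of the carnitine acyltransferases, fell by 0.59 (adjusted p = 0.0184). Without POG replicate 2, 1 oxidation gene passed as higher and 0 as lower, Eci2 was not called without POG replicate 1, and Etfb was not without DMSO replicate 1 or DMSO replicate 2.

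**Figure D4:**
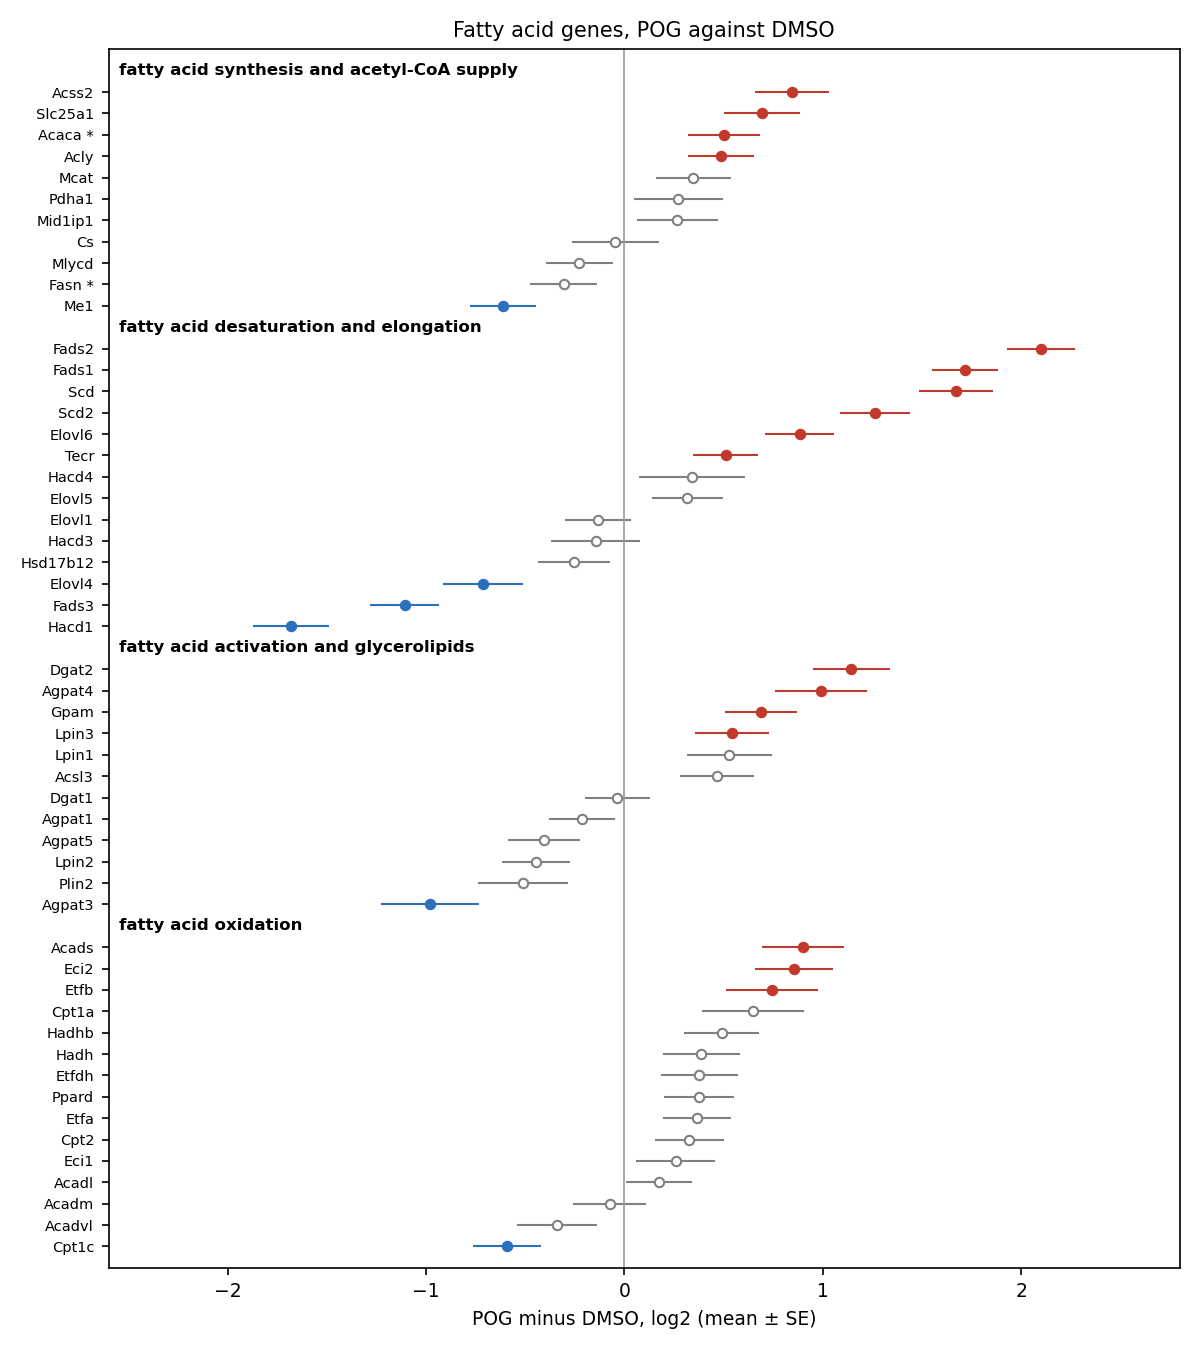
Change in log2 signal between POG (n = 2) and DMSO arrays (n = 3), with its standard error from limma, for the measured genes of 4 fatty acid lists; red marks genes that passed as higher, blue as lower, open grey circles those that did not pass, and an asterisk the members. Fads2, Fads1 and Scd lie at 1.67 to 2.10, while Acaca is at 0.50 and Fasn at -0.31.

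Of the sterol-sensing regulators, 40% passed as higher and 13.3% as lower. For sterol uptake, storage and export the shares were 30.8% and 38.5%. They were 36.4% and 9.09% for fatty acid synthesis and 42.9% and 21.4% for desaturation and elongation. For glycerolipids they were 33.3% and 8.33%, and for oxidation 20% and 6.67%. Over all 8 lists, 34 of 96 measured genes rose and 15 fell, or 35.4% and 15.6%, beside 26.7% and 19.6% of all probe sets. The median change was 0.37 beside 0.11 for all probe sets. The count of rises was 20 without POG replicate 2, and the count of falls was 7 without POG replicate 1.

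For each member, the named probe sets with the most similar profile were found by the root mean square difference over the 5 arrays, each profile taken relative to its own DMSO mean, among 7239 others. They were Ccdc125 (0.036) and Nme7 (0.044) for Insig1, Pcdh9 (0.070) and Nsmce1 (0.078) for Dhcr7, and Ctns (0.049) and Pik3r2 (0.091) for Fdft1. For Acat2 they were Anapc4 (0.040) and Rps18 (0.057), for Acaca Med24 (0.031) and Eif4a3 (0.037), and for Fasn Adam34 (0.032) and Ddx6 (0.036). None of these 12 genes is on the lipid lists, and with 5 arrays and 1 contrast many genes share a profile of this kind.

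The cell-type markers moved in the same comparison. Of the tendon markers, 6 of 9 were measured, and Dcn, Fmod and Thbs4, matrix proteins of tendon, rose, Dcn 302-fold. The other 3 did not pass: Scx, a tendon transcription factor, stood at -0.31 (adjusted p = 0.194), Tnc, tenascin C, at -0.35 (adjusted p = 0.126) and Col1a1, a collagen chain, at -0.14 (adjusted p = 0.511). The summed linear signal of the 6 was 705568 to 785840 with DMSO and 1111627 to 1185336 with POG. Col1a1, at 19.30 to 19.47 with DMSO and 19.31 and 19.18 with POG, carried most of this sum. Most of its rise came from Dcn, which read 10.05 to 10.35 with DMSO and 18.43 and 18.37 with POG. Of the smooth muscle markers, 7 of 8 measured genes fell, Smtn at -0.11 did not pass, and the summed linear signal of the 8 was 960375 to 1032552 on the DMSO arrays and 211268 to 218766 on the POG arrays. Fat cells make lipids at a high rate, and 6 of 15 of their markers were measured. Adipoq, adiponectin, rose from 4.21, 3.35 and 3.98 with DMSO to 6.89 and 7.50 with POG. Fabp4, a fatty acid carrier, rose from 4.31 to 5.05 with DMSO to 6.68 and 7.17 with POG. The DMSO signals of both lay below the lower quartile of probe set means. Lep, leptin, at -0.03 (limma, adjusted p = 0.890) and Lpl, lipoprotein lipase, at 0.34 (adjusted p = 0.170) did not pass. Pnpla2, a triacylglycerol lipase, fell by 0.65, and Pparg, the fat cell regulator, stood at -0.39 (adjusted p = 0.160) with signals of 5.42 to 6.11 on the 5 arrays, below the lower quartile of probe set means. The summed linear signal of the 6 was 1846 to 2197 with DMSO and 1573 to 1647 with POG, but Pnpla2 carried most of it, and the other 5 summed to 233 to 285 with DMSO and 454 to 542 with POG. All 4 measured leukocyte markers of 8 rose from low signals, with sums of 94 to 105 with DMSO and 324 to 378 with POG, and so did Kdr, the 1 measured endothelial marker of 7 (sums of 20 to 25 and of 78 to 82). RMA signals have no true 0, so no marker can be said to be absent. Whether these marker changes reflect shifts of cell types, and their part in the lipid gene changes, was not tested.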

How the data were processed

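Total RNA of POG- and DMSO-treated rTSPCs (P12) was labelled as biotinylated cDNA and hybridised to Affymetrix arrays. The authors processed the arrays by RMA with default settings and global scaling, and deposited log2 signals for 10141 probe sets; how these were selected and the version of RMA are not given in the sources used here. RMA shrinks low signals and compresses ratios, and 5 arrays limit the precision. The series matrix held the same values. Probe sets were named from the platform annotation, whose array name differs from the one in the methods, so the names rest on matching probe set IDs: 7240 had 1 gene symbol and 2901 had none. All 7240 symbols were found in the RefSeq table.

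The log2 values were fitted with limma 3.58.1 (R 4.3.3) on the 3 DMSO and 2 POG arrays. The p-values were adjusted across the whole table by Benjamini-Hochberg (threshold 0.05). The code was first checked on simulated data in which far fewer probe sets changed, so that check does not bear on the calls made here. Pairs of members were compared with exact two-sided permutation tests (scipy 1.17.1), which 10 arrangements limit to p = 0.2, and with limma. The study's own test was Student's t-test at a fold change over 1.5 and p under 0.05. All measured genes of the lipid lists could be named; those named first were the 6 members, up to 4 genes with the smallest p in each list, fixed regulators (Srebf1, Srebf2, Scap, Insig2, Scd, Acly), and for each member 2 genes of similar profile. The members and lists were chosen with earlier results of these data known. Other normalizations, filters, tests and left-out arrays were tried as alternatives.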

Additional observations from a re-analysis of the deposited data

How the results depend on the processing

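No direction reversed for any member, pair or called lipid gene under the alternatives run: of the 49 lipid genes that passed, all 49 kept their direction and 14 their call throughout, and of the 47 others, 7 changed sign and 17 passed somewhere. The 4694 changed probe sets became 2894 among brighter probe sets, where fewer were tested, 2078 by the methods' t-test after Benjamini-Hochberg, and 2900 to 4347 with 1 array left out. The methods' t-test left the adjusted p of Dhcr7 (1.16), Fdft1 (1.23), Acat2 (0.83) and Acaca (0.50) at 0.0634, 0.0855, 0.0611 and 0.110. Acaca was also 0.42 after quantile normalization (adjusted p = 0.0707), 0.42 after centring and 0.50 with trend and robust moderation (adjusted p = 0.0524). With 1 array left out, Insig1 ranged from 1.15 to 1.30, Acat2 from 0.62 to 1.04, Acaca from 0.39 to 0.58 and Fasn from -0.41 to -0.21. In all pathway lists, rises ranged from 20 to 33 and falls from 7 to 15. The cause of these losses was not tested.

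The pairwise differences passed in limma although the exact test could not: Insig1, Dhcr7 and Fdft1 over Acaca 0.73, 0.66 and 0.72, and Insig1, Dhcr7, Fdft1 and Acat2 over Fasn 1.54, 1.47, 1.53 and 1.13. With 1 array left out (the limma version was added after seeing the data) they were 0.68 to 0.79, 0.46 to 0.85 and 0.46 to 0.91 over Acaca, 0.14 to 0.50 for Acat2 over Acaca, and 1.36 to 1.71, 1.32 to 1.63, 1.37 to 1.76 and 0.82 to 1.44 over Fasn. The exact test was not run without a POG array, which leaves 1 array in that group.

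Same-numbered arrays did not deviate together from their group means (correlations 0.0042 and 0.0052). With 2 POG arrays these deviations mirror each other, so the check is weak and cannot tell whether same-numbered arrays share an origin. With the replicate block, 4193 probe sets passed, Acaca was 0.58 (adjusted p = 0.0501), the pairs over Acaca were 0.68 (Insig1), 0.72 (Dhcr7) and 0.46 (Fdft1, adjusted p = 0.101), and those over Fasn 1.58 (Insig1), 1.63 (Dhcr7), 1.37 (Fdft1) and 1.15 (Acat2). No other member's call changed. DMSO replicate 3 has no same-numbered POG array, so the block fit gave the same changes as leaving that array out. It is therefore no separate check of their size. No gene here had several probe sets to average.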
